A study of Mus musculus with 8 samples.

Results

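Chemokines and cytokines that B cells are known to make were followed in B cells on their way into the germinal center. The 9 genes, chosen by symbol, were Ltb, Lta, Tnf, Ccl22, Ccl3, Ccl4, Ebi3, Tgfb1 and Il4i1, out of 24259 gene symbols with counts in 8 libraries. All 9 were in the table, 6 of them had at least 1 count in every library, and 7 passed the filter on low counts (Ccl3 and Ccl4 did not).

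The cells were NP+IgDlowB220+ pre-GC B cells of C57BL/6 lymph nodes, that is, B cells that bind the hapten NP, have lost most surface IgD and carry the B cell marker B220. They were sorted at day 3 after subcutaneous immunization with NP coupled to ovalbumin (NP-OVA), given with LPS in alum. All recipients were CD45.1 Sap-/- mice, whose own T cells cannot support germinal centers because they lack the adaptor SAP, and all were given OT-II T cells, which recognise ovalbumin, carrying CD4-Cre. In the HET group these T cells also carried 1 floxed Bcl6 allele (Bcl6 fl/+), while those of the WT group did not. CD4-Cre and the floxed allele were in the transferred T cells, and the B cells that were sequenced came from the recipients. The deletion thus affected the helpers rather than these B cells, and no targeted gene was there to check the group names. The study asked whether T cells short of BCL6 deliver less CD40 signal to B cells.

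Each group comprised 4 libraries of about 200 cells, all from 1 pool of recipients' cells. Differences between libraries of a group thus come from sorting and library preparation, p-values measure only these differences, and pool and group cannot be told apart. Total counts ran from 6652386 to 12559189 per library and did not separate the groups (mean 8399420 in HET and 9492890 in WT, two-sided exact permutation p = 0.429). At these depths, 3 counts in a library, taken as the limit that a count of 0 allows, corresponded to 0.241 to 0.455 CPM. CPM is the count per 1000000 counts of the TMM-scaled library size. The limit of 3 counts allows for counting error only. The protocol has no molecular identifiers, so reads copied from the same molecule cannot be told apart from reads of separate molecules.

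Chemokines are small secreted proteins that draw cells along a gradient, and cytokines act on receptors of nearby cells. Lymphotoxin and TNF are made from neighbouring genes. Ltb encodes a membrane protein that holds Lta at the surface in the lymphotoxin heterotrimer, which acts on the lymphotoxin beta receptor and keeps follicles in order, while Lta alone, like Tnf, is a soluble trimer for the TNF receptors. Ccl22 is the ligand of CCR4, carried by many activated and regulatory T cells, and CD40 signaling is known to induce it in B cells. Ccl3 and Ccl4 are inflammatory chemokines that draw T cells and monocytes. Ebi3 is a subunit that pairs with Il27 p28 in IL-27 or with Il12a in IL-35, Tgfb1 is secreted in a latent form, and Il4i1 is a secreted enzyme that deaminates phenylalanine and other amino acids. Il4i1 was grouped with the cytokines although it is not a ligand.

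Ltb, Tnf and Lta lie side by side on chromosome 17 (GRCm38) within 10913 bp. Ltb (chr17:35194439-35196320, plus strand) is 3060 bp from Tnf (chr17:35199381-35202007, minus strand), which is 1157 bp from Lta (chr17:35203165-35205351, minus strand). The promoters of Ltb and Lta are shown because they were the only members' promoters to hold a match to a motif searched. Both sequences are from RefSeq on GRCm38.p6, run from 250 bases before to 50 bases after the start, are written 5′ to 3′ on the gene's strand, and carry the match in capitals.
Ltb, chr17:35194257-35194556, plus strand: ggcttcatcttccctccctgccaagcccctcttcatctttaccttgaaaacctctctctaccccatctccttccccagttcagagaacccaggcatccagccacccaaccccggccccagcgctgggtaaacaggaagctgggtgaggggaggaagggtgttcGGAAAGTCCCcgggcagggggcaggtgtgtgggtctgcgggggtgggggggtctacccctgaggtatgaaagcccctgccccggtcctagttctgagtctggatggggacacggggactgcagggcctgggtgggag
Lta, chr17:35205302-35205601, minus strand: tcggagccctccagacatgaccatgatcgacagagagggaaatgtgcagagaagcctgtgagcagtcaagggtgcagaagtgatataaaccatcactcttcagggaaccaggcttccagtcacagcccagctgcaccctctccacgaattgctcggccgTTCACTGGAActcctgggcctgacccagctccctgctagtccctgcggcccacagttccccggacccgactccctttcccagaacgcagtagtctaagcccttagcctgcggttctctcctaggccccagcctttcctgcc
The Ltb match is to the NF-kB motif GGGNNNTTCC, read on the opposite strand, and begins 87 bases before the start. The Lta match is to the STAT6 motif TTCNNNNGAA and begins 91 bases before it. Searched on both strands, the NF-kB motif was in 5.555% of 32851 promoters, the STAT6 motif in 6.953%, and the AP-1 motif TGANTCA in 7.808%. Of the 9 genes 8 were matched to a promoter, the exception being Ccl4, and 1, 1 and 0 of them held the motifs. A match describes letters only, and no match says nothing of a factor's binding.

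Several of these mRNAs carry AU-rich elements, repeats of ATTTA in the 3' UTR through which the decay factor Zfp36 is known to act, best known for Tnf. Tnf had 8 such pentamers, Ccl3 had 5 and Lta had 3, the highest numbers among the 9 genes, and for these the densest window of 30 bases is shown with the pentamers in capitals (GRCm38, GENCODE M21).
Tnf, chr17:35199679-35199708, minus strand: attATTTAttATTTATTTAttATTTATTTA
Ccl3, chr11:83648085-83648114, minus strand: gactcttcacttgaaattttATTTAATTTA
Lta, chr17:35203408-35203437, minus strand: tATTTAtggagagaaaagttaagttATTTA
Ccl22 and Ccl4 had 2 pentamers each, Ebi3 and Tgfb1 had 1 each, and Ltb and Il4i1 had 0. At least 3 pentamers were present in 32.12% of 20628 genes with a 3' UTR, so the 3 of 9 found here are close to that share.

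To compare levels between genes, the authors' TPM values, which are per length, were used. Ltb stood highest with a mean of 855 TPM and 783 to 947 TPM over the 8 libraries of both groups, so its lowest library was above the highest library of any other member. Il4i1 followed with 142 ± 40.2 TPM (SD, n = 8, as for the next values). Since 83.9% of its exon bases are shared with Tbc1d17 on the opposite strand, how far this value is its own is not known. Lta came next with 57.8 ± 26.6 TPM. Ebi3 averaged 27.2 ± 13.9 TPM, Ccl22 19.8 ± 35.7 TPM and Tnf 17.9 ± 6.82 TPM. Tgfb1 was lower with 6.06 ± 2.26 TPM, and Ccl3 (4.03 ± 7.73 TPM) and Ccl4 (3.26 ± 5.74 TPM) came last. Of the neighbours in this order, Ltb and Il4i1 did not overlap over libraries, nor did Tnf and Tgfb1, and all other neighbours did. With CPM divided by exon length instead, Ebi3 and Lta changed places and Ccl4 moved ahead of Tgfb1 and Ccl3.

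**Figure D1:**
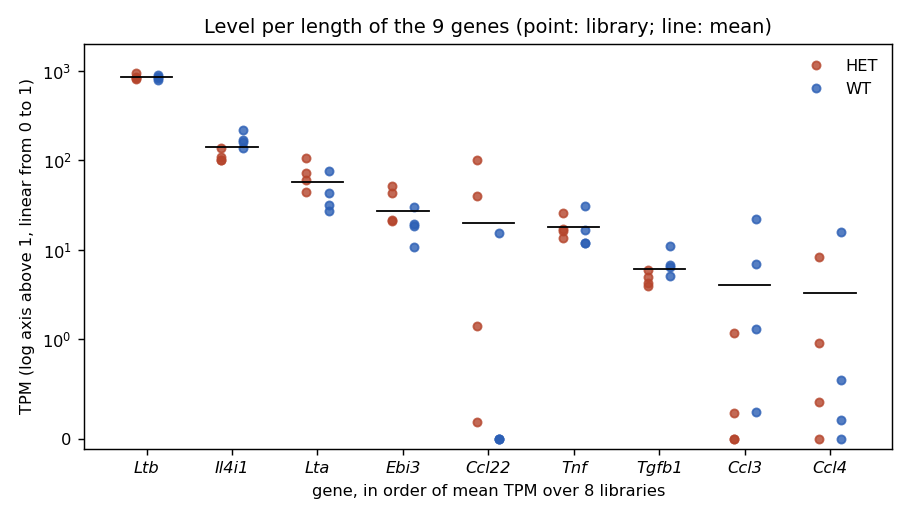
TPM of each gene (y axis, logarithmic above 1 and linear from 0 to 1) in the 4 HET and 4 WT libraries, with genes in order of their mean and a line at the mean over 8 libraries. Ltb sits between 783 and 947 TPM in all libraries, while Ccl22 runs from 0 to 101 TPM.

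The 3 genes of the lymphotoxin and TNF locus were therefore present at very different levels. The TPM of Ltb was 7.66 to 19.1 times that of Lta in the HET libraries and 11.4 to 30.1 times in the WT libraries. Lta in turn stood at 2.74 to 4.52 times the TPM of Tnf in HET and 1.66 to 3.68 times in WT. These ranges overlap between the groups and were not tested.

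Between the groups, none of the 7 tested members passed an adjusted p of 0.05 in edgeR, where 3 of 12744 genes did (0.0235%). At an unadjusted p under 0.05, which 7.22% of all genes reached, Ebi3 stood on the higher side in HET and Il4i1 on the lower. DESeq2 called 0.687% of 13834 genes at an adjusted p of 0.05 and 1 member, Il4i1, out of 8 members given an adjusted p. The ranges of CPM did not overlap for 1 of the 7 members, again Il4i1, and for 4.61% of all genes. With so few members, these counts say little about the group of genes. Of the 7, 5 had a positive and 2 a negative log2 fold change of HET over WT, with a median of 0.10 against -0.00 over all genes tested.

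**Figure D2:**
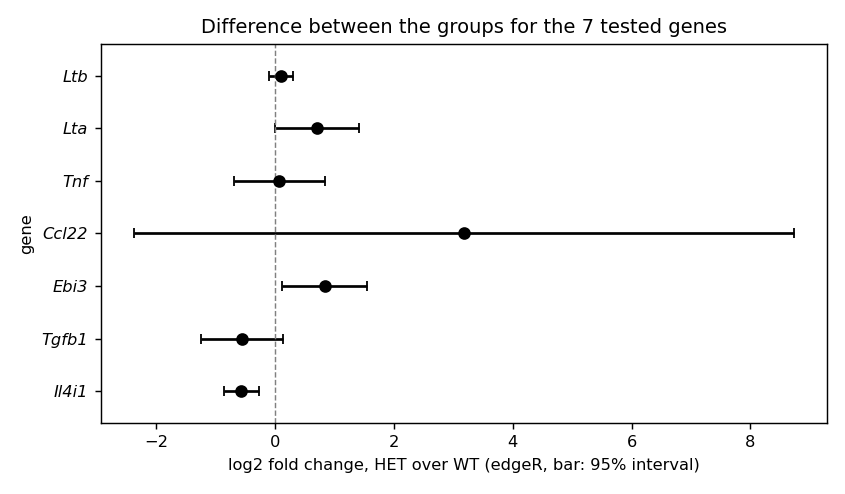
Log2 fold change of HET over WT (x axis) with its 95% interval from edgeR for the 7 genes tested (y axis). The intervals of Ebi3 and Il4i1 leave out 0, that of Ltb is the narrowest, and that of Ccl22 runs from -2.38 to 8.74.

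Ltb had the steadiest level of the 9 genes. Its libraries stood at 601, 480, 504 and 508 CPM in HET and at 510, 523, 461 and 460 CPM in WT, so the groups overlapped and only HET 1 stood higher than the rest. The means were 523 ± 53.5 and 489 ± 32.9 CPM (SD, n = 4 each), a log2 fold change of 0.10 (SE 0.09, edgeR adjusted p = 0.864). Its 95% interval, from -0.10 to 0.29, leaves room for a difference of either sign. The coefficient of variation within groups was 8.77%, against a median of 26.9% over all genes tested.

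Lta had a higher mean in HET, with an unadjusted p near the threshold. The HET libraries stood at 47.4, 76.9, 51.5 and 32.6 CPM and the WT libraries at 55.1, 31.3, 18.8 and 22.8 CPM. The highest value was in HET 2, and WT 1 overlapped the HET libraries while the other 3 WT libraries lay below all of them. The means were 52.1 ± 18.4 and 32.0 ± 16.3 CPM (SD, n = 4 each), a log2 fold change of 0.70 (SE 0.33, unadjusted p = 0.0504 and adjusted p = 0.693 in edgeR). In DESeq2 the unadjusted p was 0.0328 and the adjusted p 0.480. A single library weighed on this value, which was 0.46 without HET 2 and 1.098 without WT 1.

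Tnf, the inflammatory cytokine between them, did not follow a group. Its HET libraries stood at 12.3, 21.9, 14.4 and 14.0 CPM and its WT libraries at 26.1, 9.96, 13.3 and 10.0 CPM. The highest library in each group was the one that was also highest for Lta, HET 2 and WT 1. The means were 15.6 ± 4.27 and 14.8 ± 7.68 CPM (SD, n = 4 each), a log2 fold change of 0.07 with a 95% interval of -0.70 to 0.85 (edgeR adjusted p = 0.980). The sign depended on single libraries, with 0.49 without WT 1 and -0.13 without HET 2.

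**Figure D3:**
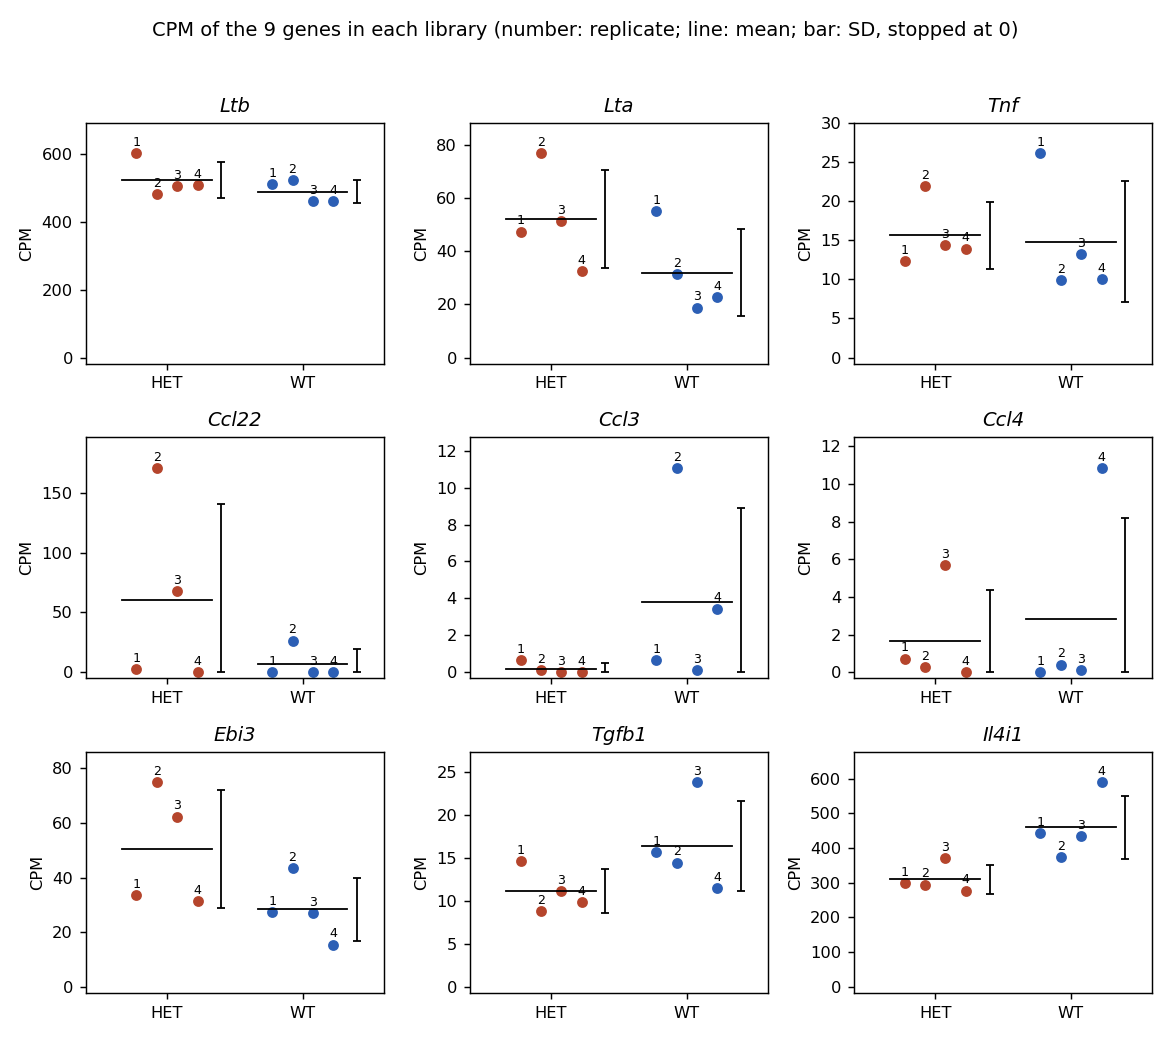
CPM (y axis, linear, a separate scale per gene) of the 9 genes in each library, with the replicate number at each point, a line at the group mean and a bar for the SD that stops at 0. Il4i1 is the gene in which all 4 HET libraries lie below all 4 WT libraries, and Ccl22, Ccl3 and Ccl4 are each carried by 1 to 3 libraries.

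The 3 chemokines were not spread evenly over the libraries. Ccl22 (chr8:94745590-94751699, plus strand) had 32, 1318, 453 and 2 counts in the HET libraries and 0, 259, 0 and 0 counts in the WT libraries. It was thus plainly present in HET 2, HET 3 and WT 2, low in HET 1, at or under the limit in HET 4 and not detected in 3 of 4 WT libraries. In CPM these were 2.57, 171, 67.9 and 0.303 in HET and 0, 26.3, 0 and 0 in WT. HET 2 alone held 63.8% of the CPM summed over libraries. The means were 60.4 ± 80.0 and 6.58 ± 13.2 CPM (SD, n = 4 each), a log2 fold change of 3.18 (SE 2.29) and a 95% interval of -2.38 to 8.74 (edgeR adjusted p = 0.834). Its coefficient of variation within groups, 171%, stood at percentile 99.9 of all genes tested. The log2 fold change was 1.84 without HET 2. Without WT 2 the remaining WT libraries are at 0. The HET mean was then at least 185-fold above the limit of 3 counts per library. Over 15 other settings of edgeR, DESeq2 and limma the adjusted p was between 0.611 and 0.965. With the replicate block, edgeR gave an unadjusted p of 0.0132 and an adjusted p of 0.675.

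Dendritic cells also make Ccl22 and are the main source of its near relative Ccl17, so their transcripts were read beside it. Ccl17 stood at 0.899 CPM in HET 3, 0.883 CPM in WT 3 and 0 in the other 6 libraries, that is, at 0 in both HET 2 and WT 2. The summed CPM of 10 dendritic cell markers was 180, 129, 65.8 and 57.3 in the HET libraries and 12.8, 21.6, 88.1 and 131 in the WT libraries. In HET 1 and HET 2 Siglech made up most of this sum, at 102 and 91.8 CPM. The single markers peaked in different libraries. Siglech, Itgax and Clec9a were highest in HET 1, Flt3 in HET 3 and Batf3 in HET 4. Cd209a and Fscn1 were highest in WT 3, and Zbtb46, Xcr1 and Clec10a in WT 4. Flt3 stood at 20.4 ± 4.65 CPM in HET and 7.94 ± 3.05 CPM in WT (edgeR adjusted p = 0.280). Of the 7 tested, 4 had positive and 3 negative log2 fold changes. Of the dendritic cell markers, 8 were detected in HET 2, 9 in HET 3 and 5 in WT 2, the libraries with the most Ccl22. The summed CPM of 12 T cell markers was highest in these same libraries, at 508, 327 and 367 CPM. Within that list Cd4 was at 0 to 0.758 CPM over all libraries, and Cd8b1 at 12.2 to 123 CPM. The sums are thus not a measure of the transferred CD4 helpers. The part of dendritic cells or T cells in the Ccl22 values was not tested. In bulk libraries like these, fewer cells that make a transcript and less RNA per cell cannot be told apart.

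Ccl3 (chr11:83647844-83649355, minus strand) and Ccl4 (chr11:83662584-83664683, plus strand) are neighbours, 13228 bp apart. Ccl3 had 8, 1, 0 and 0 counts in HET and 7, 109, 1 and 33 counts in WT. Ccl4 had 9, 2, 38 and 0 counts in HET and 0, 4, 1 and 104 counts in WT. The highest library of Ccl3 was thus WT 2 and that of Ccl4 WT 4, with 68.9% and 60.1% of the CPM summed over libraries, and WT 4 was the only library with over 10 counts of both. Mean Ccl3 was 0.193 ± 0.306 CPM in HET and 3.83 ± 5.05 CPM in WT (SD, n = 4 each), and the groups overlapped (two-sided exact permutation p = 0.0857, smallest possible 0.0286). The difference of -3.63 CPM was -1.22 CPM without WT 2. Mean Ccl4 was 1.67 ± 2.70 and 2.85 ± 5.34 CPM (exact permutation p = 0.857). These exact tests were chosen after it was seen that both genes failed the filter. DESeq2, which filters differently, gave Ccl3 an unadjusted p of 0.0021 and an adjusted p of 0.158.

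Both chemokines are abundant in activated CD8 T cells, NK cells and macrophages. The summed CPM of 10 markers of CD8 T and NK cells was 58.5, 125, 127 and 44.8 in the WT libraries, so WT 4, with the highest Ccl4, had the lowest value of all 8 libraries. The HET libraries stood at 242, 220, 184 and 64.3 CPM, and among them Ccl4 was above 1 CPM only in HET 3. That library was also the only one with Gzmb (5.24 CPM). It was highest for Nkg7 and Cd160 by a narrow margin. Nkg7 stood at 96.9 CPM in HET 3 and 96.6 CPM in HET 2, and Cd160 at 6.59 CPM in HET 3 and 6.51 CPM in HET 1. Of the other markers, Gzma, Ncr1, Klrb1c, Klrd1 and Klrk1 were highest in HET 1, and Eomes and Prf1 in HET 2. Prf1 was lowest in HET 3, at 1.35 CPM. The macrophage and monocyte list was highest in WT 2 with 498 CPM, against 122 to 399 CPM elsewhere. WT 2 was also highest for Ccl3 and for Il1b, at 4.27 CPM against 0 to 0.19 CPM in the other libraries. Of the macrophage markers, Lyz2 stood at 399 CPM in WT 2 and at 0 to 28.5 CPM in the other libraries, so it made up most of the WT 2 sum. Fcgr1 stood at 1.22 CPM in WT 2 and at 0 in the other 7. The remaining markers were not highest in WT 2. Ly6c2 and Cd68 were highest in HET 1, Mrc1 in HET 4, Itgam in WT 1, Csf1r in WT 3, and Adgre1 and Cd14 in WT 4. Whether CD8 T cells, NK cells or macrophages contributed to the Ccl3 and Ccl4 values was not tested.

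Ebi3 (chr17:55952640-55957022, plus strand) had a higher mean in HET. Its HET libraries stood at 33.5, 74.9, 62.3 and 31.4 CPM and its WT libraries at 27.4, 43.6, 27.0 and 15.4 CPM. All 4 HET libraries were above 3 of the 4 WT libraries, and WT 2 lay within the HET range. The means were 50.5 ± 21.5 and 28.4 ± 11.6 CPM (SD, n = 4 each), a log2 fold change of 0.83 (SE 0.33) and a 95% interval of 0.12 to 1.55 (unadjusted p = 0.0256 and adjusted p = 0.612 in edgeR, and adjusted p = 0.335 in DESeq2). The value was between 0.59 and 1.12 when a library was left out. HET 2, HET 3 and WT 2, the 3 highest libraries of Ebi3, were also the 3 highest of Ccl22.

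Of the 2 partners of Ebi3, Il12a was present throughout, at 40.0 to 54.4 CPM in every library, and the TPM of Ebi3 was 0.791 to 2.05 times that of Il12a in HET and 0.489 to 1.06 times in WT. Il27, which encodes p28, was at 24.4 CPM in HET 3 and at 0 to 0.907 CPM in the other libraries. Its counts there were thus those of a single library. Ebi3 shares 270 bp, 23.4% of its exon bases, with the antisense gene Gm16712. Gm16712 stood at 31.6 ± 8.62 CPM in HET and 21.4 ± 7.97 CPM in WT (SD, n = 4 each), a log2 fold change of 0.56 (edgeR adjusted p = 0.745). The SMART-Seq2 protocol does not mark strand, so reads of the shared bases cannot be told apart between these genes.

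Tgfb1 (chr7:25687002-25705077, plus strand) had a lower mean in HET. The HET libraries stood at 14.6, 8.81, 11.1 and 9.86 CPM and the WT libraries at 15.7, 14.4, 23.7 and 11.5 CPM. The groups overlapped, with WT 3 the highest. The means were 11.1 ± 2.53 and 16.3 ± 5.24 CPM (SD, n = 4 each), a log2 fold change of -0.55 (SE 0.32) and a 95% interval of -1.24 to 0.14 (unadjusted p = 0.108 and adjusted p = 0.773 in edgeR). Without WT 3 the log2 fold change was -0.31. Among genes for release and activation of TGF-beta and TNF, Adam17, the protease that sheds TNF, was at 73.7 ± 15.0 CPM in HET and 87.1 ± 11.9 CPM in WT, and Nrros, which tethers latent TGF-beta on leukocytes, at 221 ± 17.1 and 245 ± 24.8 CPM (edgeR adjusted p = 0.801 and 0.814).

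Il4i1 (chr7:44816387-44840809, plus strand) was the member in which the groups stood apart. The HET libraries stood at 298, 294, 371 and 278 CPM and the WT libraries at 442, 373, 434 and 589 CPM. Every HET library was lower than every WT library, but HET 3 (371 CPM) and WT 2 (373 CPM) nearly touched. The means were 310 ± 41.3 and 460 ± 91.5 CPM (SD, n = 4 each), a log2 fold change of -0.57 (SE 0.13) and a 95% interval of -0.86 to -0.28. The unadjusted p was 0.000848 and the adjusted p 0.257 in edgeR, against an adjusted p of 0.0233 in DESeq2 and 0.0240 in edgeR without the filter on low counts. The log2 fold change was between -0.66 and -0.43 when a library was left out.

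The annotation limits what this value measures. Il4i1 shares 3423 bp, 83.9% of its exon bases, with exons of Tbc1d17 (chr7:44834623-44849079), a gene on the opposite strand that encodes a Rab GTPase-activating protein. Tbc1d17 stood at 367, 341, 453 and 347 CPM in HET and at 515, 473, 527 and 647 CPM in WT, so its groups did not overlap either. Its means were 377 ± 52.0 and 541 ± 74.6 CPM (SD, n = 4 each), a log2 fold change of -0.52 (SE 0.12, unadjusted p = 0.000504 and adjusted p = 0.233 in edgeR). The CPM of Il4i1 was 0.789 to 0.910 times that of Tbc1d17 in every library. By the rule that names for each member the gene outside the list with the most similar log2 CPM (7265 genes, 8 libraries), Tbc1d17 was also the gene most like Il4i1, with Pearson's r = 0.987 across libraries, 0.966 within HET and 0.992 within WT. Without strand, reads of the shared bases cannot be told apart. Neither the level nor the difference between the groups can thus be assigned to Il4i1 or to Tbc1d17. Nup62 spans the start of the GENCODE model of Il4i1 on the same strand but shares only 97 bp with its exons. The RefSeq promoter of Il4i1 begins at chr7:44836038, past the end of Nup62 at 44830812. Nup62 did not follow Il4i1, with 100 ± 26.9 CPM in HET and 92.0 ± 7.72 CPM in WT (edgeR adjusted p = 0.916).

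**Figure D4:**
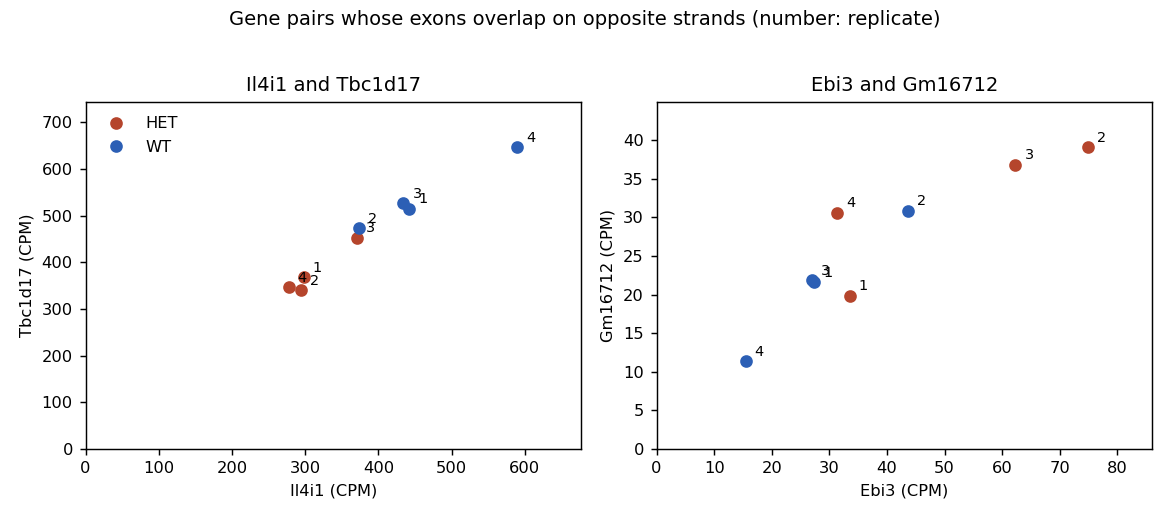
CPM of Tbc1d17 against Il4i1 (left) and of Gm16712 against Ebi3 (right) in each library, on linear axes from 0, with the replicate number at each point. Tbc1d17 and Il4i1 lie along a line, with a ratio of 0.789 to 0.910, and Gm16712 and Ebi3 scatter more, with Ebi3 at 1.02 to 1.91 times Gm16712.

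By the same rule the gene most like Ccl22 was Pdcd5 (r = 0.950), that most like Ebi3 Sh2b1 (0.978), that most like Lta Gm11346 (0.955), that most like Ltb Sem1 (0.905), that most like Tnf Myh9 (0.970) and that most like Tgfb1 Mndal (0.976). These are the highest of 7265 values over only 8 libraries, which share 2 pools, and 1 (Ltb) to 26 (Ebi3) genes exceeded 0.9 for each member, so each is a description only.

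The genes around the members were then read from lists of receptors, partners, other ligands and regulators. Of 56 other chemokine, cytokine and TNF family ligands 41 were analysed and 12 could be tested, with 1 higher and 1 lower in HET at an unadjusted p under 0.05 and 0 past the adjusted threshold in edgeR. Tnfsf9, the ligand of the T cell costimulatory receptor 4-1BB, stood at 12.7 ± 7.21 CPM in HET and 3.22 ± 2.31 CPM in WT (SD, n = 4 each), a log2 fold change of 1.99 (edgeR adjusted p = 0.579). Tnfsf8, the CD30 ligand, stood at 0.721 ± 0.948 and 3.52 ± 3.05 CPM (log2 fold change -2.30, edgeR adjusted p = 0.626). The median log2 fold change of the 12 was 0.16. Ifng had under 1 CPM in every library, as did Il4 and Il17a.

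Of 12 receptors of the members 11 were analysed and 8 tested, and 0 had an unadjusted p under 0.05 in edgeR or passed the adjusted threshold. Their median log2 fold change was 0.03. The 2 with the lowest p were Tnfrsf1b, the type 2 TNF receptor, at 22.4 ± 6.92 CPM in HET and 16.0 ± 8.50 CPM in WT, and Tgfbr1 at 12.9 ± 6.72 and 17.8 ± 5.68 CPM (SD, n = 4 each, edgeR adjusted p = 0.840 and 0.848). Of 12 genes for partners, release and activation, 8 were analysed and 6 tested, with a median of -0.09 and 0 under an unadjusted p of 0.05 in edgeR.

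Among 20 factors known to act on the transcription or mRNA stability of the members, all were tested, 13 were lower and 7 higher in HET, and the median log2 fold change was -0.09. The AP-1 subunits Fos and Jun were lower past the adjusted threshold, with log2 fold changes of -1.43 and -1.004 (edgeR adjusted p = 0.00206 and 0.0411). These are 2 of the 3 genes called among all genes. At an unadjusted p under 0.05 there were 4 lower and 1 higher in all. Besides Fos and Jun, the lower ones were Zfp36, the decay factor named above, at 489 ± 59.3 CPM in HET and 673 ± 26.1 CPM in WT (fold change -0.46 on the log2 scale, edgeR adjusted p = 0.196), and the NF-kB subunit Rel (log2 fold change -0.29, edgeR adjusted p = 0.647). The higher one was Batf, an AP-1 family factor of activated lymphocytes (log2 fold change 0.76, edgeR adjusted p = 0.328). Beside these, Tnf, with the most ATTTA pentamers of the members, had a log2 fold change of 0.07, and no relation between these factors and the members was tested.

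Markers of other cells were measured beside these results. All 10 B cell markers were detected in every library, and their summed CPM was 22173 to 23450 in HET and 25334 to 28075 in WT, without overlap. All 10 had negative log2 fold changes of HET over WT. Of these, 8 were at an unadjusted p under 0.05, which 7.22% of all genes reached, and 0 were past the adjusted threshold in edgeR. Cd74 was the largest part of the sum, at 11197 ± 376 CPM in HET and 14139 ± 1079 CPM in WT (SD, n = 4 each). It also had the lowest p, with a log2 fold change of -0.34 (edgeR adjusted p = 0.0770). The 12 T cell markers summed to 238 to 508 CPM in HET and 107 to 367 CPM in WT, and all 11 tested had positive log2 fold changes, 1 at an unadjusted p under 0.05. Cd4, which could not be tested, was at 0 to 0.758 CPM over all libraries, against 12.2 to 123 CPM for Cd8b1. The list for CD8 T and NK cells ran from 64.3 to 242 CPM in HET and 44.8 to 127 CPM in WT, with positive log2 fold changes for all 9 tested genes. Plasmablast markers summed to 2037 CPM in HET 1, carried by Jchain at 1576 CPM, and to 219 to 514 CPM in the other libraries. Neutrophil markers stayed under 7 CPM in sum, and the 5 stroma markers were not analysed here. The HET libraries thus held less of the B cell markers and, in the mean, more of the T cell markers. In that group Ccl22, Ebi3, Lta, Ltb and Tnf had the higher mean CPM, and Ccl3, Ccl4, Tgfb1 and Il4i1 the lower. The part of the marker shifts in the members' values was not tested.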

How the data were processed

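RNA was measured in 8 libraries, 4 HET and 4 WT, grouped by sample title. The authors adapted SMART-Seq2 to about 200 cells, aligned reads to GRCm38 (mm10) with HISAT2 2.2.1 and assigned them to genes with HTSeq-count; annotation release, strand setting and treatment of reads with several alignments are not given in the sources used here. The deposited counts are whole reads per gene for 24259 symbols. The deposited TPM values are these counts over 1 fixed length per gene (19438 of 19438 genes compared had the same count to TPM ratio between libraries, within 1e-06).

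Here, counts were tested in R 4.3.3 with edgeR 4.0.16 (filterByExpr, TMM, robust quasi-likelihood F-test, Benjamini-Hochberg adjustment over 12744 genes, threshold 0.05). DESeq2 1.42.0, the study's tool, and limma 3.58.1 on log2(TPM + 1) and log2(TPM + 0.1) were alternatives, as were RLE scaling, leaving out the filter, a minimum mean of 50 counts, a replicate block and each library left out. Fits were tested on simulated data with 200 changed genes. Gene models came from GENCODE M21 (23555 symbols matched), and promoters from RefSeq. Single values were compared by exact permutation over 70 arrangements.

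The members and lists were chosen with earlier results of these data known. All 9 members are named, with, from each pathway list, every gene past the threshold and otherwise the 2 with the lowest p. Ccl17, Il1b, Gzmb, Lyz2, Fcgr1, Ifng, Il4, Il17a, Jchain, Cd74, Il12a, Il27, Zfp36, Rel, Batf and the overlapping genes were named after their values were seen. So were all other cell type markers named singly, and the T cell sums set beside Ccl22. Adjusted p-values are from edgeR unless DESeq2 is named.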

Additional observations from a re-analysis of the deposited data

Results flagged for a closer look

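A library was singled out within its group of 4 when its distance to the next library was unusually wide relative to the whole range of the 4 values. This held in 3 of the 20 groups of 4 examined. The rule marks about 1 in 20 by chance only for normally distributed values. That share does not apply to values mostly at or near 0. All 3 concern chemokines with few or no counts in most libraries. Ccl22 stood at 26.3 CPM in WT 2, with 0 in WT 1, 3 and 4, and the gap was 1 of the range. Ccl4 stood at 10.9 CPM in WT 4 and at most 0.406 CPM in WT 1, 2 and 3, a gap of 0.963 of the range. Ccl4 also stood at 5.69 CPM in HET 3 and at most 0.724 CPM in HET 1, 2 and 4, a gap of 0.873 of the range.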

How the results depend on the processing

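The number of genes called, 3 in edgeR, was 95 in DESeq2, 38 without a filter, 8 with limma on log2(TPM + 0.1), 7 with a mean of at least 50 counts, 0 with limma on log2(TPM + 1) and 0 with the replicate block, and 1 to 6 when a library was left out (6 without WT 1). The number of members called, 0 in edgeR, was 1 (Il4i1) in DESeq2 and 1 (Il4i1) without a filter. The number of members at an unadjusted p under 0.05, 2 in edgeR, was 4 in DESeq2, 4 with the replicate block, 1 with limma on log2(TPM + 1), and 1 to 3 with a library left out. Under the 15 alternatives each, the direction of Ccl22, Ebi3, Lta, Ltb, Tgfb1 and Il4i1 held, and the log2 fold change of Tnf turned negative without HET 2 (-0.13), without WT 2 (-0.07) and without WT 4 (-0.08), in a range of -0.13 to 0.49 over the libraries left out. The difference in mean Ccl4, -1.18 CPM, was 1.49 CPM without WT 4, in a range of -2.52 to 1.49 CPM. The causes were not tested. Same-numbered libraries did not deviate together (r from -0.05 to 0.01), so the block pairs libraries by number only. Counts of 0 to 109 limit what can be said of Ccl3 and Ccl4.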
